A study of Mus musculus with 15 samples.

Results

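The genes described here are 44 genes of glucose uptake, glycolysis, the pentose phosphate pathway and glycogen storage, out of 47069 genes in a count table from the left ventricle of the mouse heart. They were chosen by name, as the entries of the table whose symbol equals a member. All 44 were found, each of them 1 time, and all 44 passed the filter on low counts in each of the 3 comparisons, Aldoc only through the infarcted hearts. They comprise 3 glucose transporters, 3 hexokinases, 7 enzymes of upper glycolysis, 4 PFKFB regulators, 8 enzymes of lower glycolysis, 4 genes of lactate formation and transport, 5 genes that control pyruvate dehydrogenase, 5 of the pentose phosphate pathway and 5 of glycogen.

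Glucose enters a heart muscle cell through membrane transporters and is trapped by hexokinase as glucose phosphate. It is then split by glycolysis into pyruvate, stored as glycogen, or sent through the pentose phosphate pathway, which makes NADPH and the sugar of nucleotides. Pyruvate is either burned in mitochondria, through the pyruvate dehydrogenase complex, or turned into lactate and exported. Many of these steps have several isozymes from separate genes: a muscle type that is abundant in heart and skeletal muscle, and general types found in most tissues, among them white blood cells and fibroblasts. The healthy adult heart burns mainly fatty acids, and it relies more on glucose when oxygen is scarce.

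Messenger RNA was measured by stranded mRNA sequencing in 15 libraries from C57BL/6 mice, 5 in each of 3 groups. In the rHCI group, a myocardial infarct was followed 7 days later by an injection of the rHCI hydrogel, a gel of recombinant human collagen type I, into the heart muscle, and the ventricle was taken 2 days after that. The PBS group had the same infarct and the same times, with an injection of saline in place of the hydrogel. The sham group had a sham operation and no treatment and was taken at the matched age of 10 weeks. The labels record no injection for sham hearts, so in comparisons with sham the effects of the infarct and of the injection cannot be told apart. Libraries are named by group and replicate number: rHCI 1, 3, 7, 11 and 13; PBS 2, 6, 9, 12 and 14; and sham 16, 17, 18, 19 and 20. Wherever values of single libraries follow, they stand in that order.

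The 15 libraries held 32978702 to 103356830 counts, and 12 of them share a number in their descriptions whose meaning the labels do not give. Mitochondrially encoded genes took 9.77% to 14.5% of counts in the 10 infarcted hearts and 15.3% to 17.2% in sham hearts. Of 10 cardiomyocyte markers, 9 were lower in each infarcted group than in sham hearts, with summed levels of 44617 to 65316 CPM (counts of a gene after scaling every library to 1 total) in rHCI hearts, 42301 to 59859 CPM in PBS hearts and 78517 to 88089 CPM in sham hearts. All 10 fibroblast markers were higher in both infarcted groups, summing to 13106 to 21491 CPM in rHCI hearts, 14334 to 21349 CPM in PBS hearts and 1146 to 1458 CPM in sham hearts. All 10 macrophage markers were higher too, with sums of 750.1 to 965 CPM in rHCI hearts, 763 to 1036 CPM in PBS hearts and 216 to 266 CPM in sham hearts. Of 8 neutrophil markers, 6 passed the low-count filter, and all 6 were higher. The 8 summed to 10.8 to 23.4 CPM, 11.2 to 27.9 CPM and 1.70 to 3.23 CPM in rHCI, PBS and sham hearts. At that sham level some may have passed the filter only through the infarcted hearts, so these calls are not read as a result. Of 8 endothelial markers, 3 were higher for rHCI and 4 for PBS against sham, and 0 of 6 erythroid markers passed in either comparison. Over all genes tested, 34.1% were higher and 29.7% lower for rHCI against sham, and 36.5% and 34.9% for PBS. The counts of markers are read against that background. Of 10 skeletal muscle markers, 6 passed the low-count filter, scarce ones possibly through the infarcted hearts alone. Of these 6, 2 were higher and 1 lower for rHCI (median log2 fold change -0.24), and 3 were higher and 1 lower for PBS (1.39). Sums over all 10 of these markers, heart-expressed Ckm and Acta1 among them, were 1817 to 2256 CPM in rHCI hearts, 1760.1 to 2182 CPM in PBS hearts and 2560.2 to 2930.2 CPM in sham hearts, and Myh4, a fast skeletal muscle myosin, had 0 counts in all rHCI and sham libraries. The part of these cell types in the results that follow was not tested, and in whole tissue, fewer cells of a type and less RNA per cell cannot be told apart.

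Most of the 44 genes differed between infarcted and sham hearts, and they split into those that were higher and those that were lower. For PBS against sham, 16 were higher, 25 were lower and 3 did not pass (edgeR quasi-likelihood test, Benjamini-Hochberg adjusted p under 0.05 over all genes tested). Over all 16207 genes tested, 71.4% passed in that comparison (36.5% of all tested as higher and 34.9% as lower), and the members' counts are read against that background. For rHCI against sham, 16 were higher, 22 were lower and 6 did not pass, against a background of 63.9% of 16076 genes (34.1% higher and 29.7% lower). The median log2 fold change of the 44 genes was -0.18 for rHCI against sham and -0.23 for PBS against sham, while that of all genes tested was 0.00 and -0.01. The 2 comparisons share the 5 sham libraries and are therefore given side by side, without a measure of their likeness.

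The groups did not overlap at all for many of these genes. For rHCI against sham, 15 genes had all 5 rHCI values above all 5 sham values and 17 had all below, against a background of 49.4% of genes without overlap (27.2% above and 22.2% below). For PBS against sham these counts were 15 and 21, against a background of 59% (31.6% above and 27.4% below). Aldoc is among the 15 genes above sham in each comparison and among the higher members in the counts that follow. For reasons given below, its calls are not read as a result. The split depends on the scaling. When counts were scaled by library total alone, the median of all genes itself moved to 0.22 for rHCI against sham and 0.27 for PBS against sham, and the calls became 20 higher and 12 lower members for rHCI (background 49.8% and 13.2%) and 20 higher and 14 lower members for PBS (background 55.1% and 16.1%). The 4 genes added as higher were Pfkl, Pgk1, Ldha and Taldo1. Gapdh, Gpi1, Tpi1, Hk1, Pkm, Slc16a1, Rpia and Gbe1 lost their lower calls in both comparisons, Pgam2 and Pfkfb1 did so for rHCI, and Pdk4 and Pdp1 for PBS. Against a minimum fold of 1.5 (glmTreat of edgeR, on the TMM scale), 9 members were higher and 0 lower for rHCI (background 16.2% and 1.61%), and 9 were higher and 4 lower for PBS (background 19.3% and 5.23%). Directions below are on the TMM scale, relative to a median gene near 0.

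**Figure D1:**
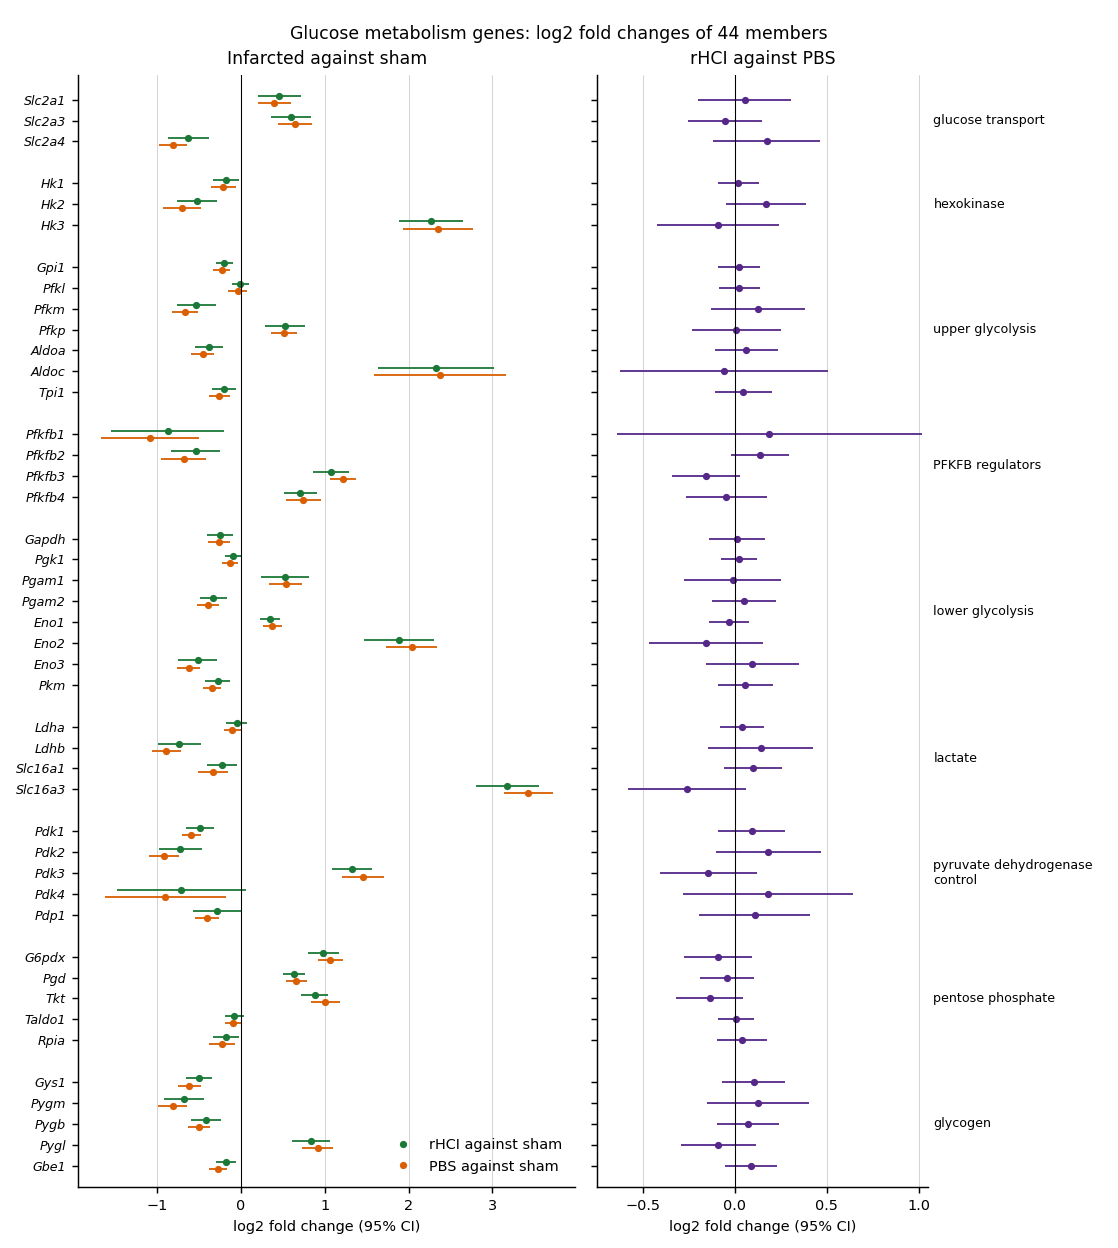
Log2 fold changes of the 44 genes (points) with 95% confidence intervals (lines), grouped by role, for rHCI and PBS against sham (left) and rHCI against PBS (right, a narrower axis). Against sham the genes reach from -1.08 (Pfkfb1) to 3.43 (Slc16a3), whereas all 44 lie between -0.26 and 0.19 for rHCI against PBS.

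Among the glucose transporters, the insulin-regulated muscle transporter was lower in infarcted hearts and the general transporters were higher. Slc2a4 (GLUT4; ENSMUSG00000018566, chr11:69942539-69948188, minus strand, coordinates in GRCm38 here and below), which insulin and contraction bring to the surface of muscle and fat cells, had 304, 232, 295, 328 and 405 CPM in rHCI hearts and 269.5, 305, 267, 227 and 319 CPM in PBS hearts. Sham hearts had 477, 504, 481, 466 and 503 CPM. Every infarcted heart lay below every sham heart, and rHCI 13 came closest. The log2 fold change (± standard error) was -0.63 ± 0.11 for rHCI against sham and -0.81 ± 0.08 for PBS against sham (edgeR adjusted p = 0.000434 and 1.03e-06).

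Slc2a1 (GLUT1; ENSMUSG00000028645, chr4:119108711-119137983, plus strand), the transporter of basal uptake in most cells, had 21.6, 28.3, 30.0, 22.5 and 20.6 CPM in rHCI hearts and 19.8, 24.8, 25.9, 25.6 and 22.3 CPM in PBS hearts. Sham hearts had 16.4, 20.6, 18.5, 19.4 and 15.2 CPM. The rHCI values all exceeded the sham values, the lowest of them by a narrow margin, and PBS 2 fell within the sham range. Its log2 fold change was 0.46 ± 0.12 for rHCI against sham and 0.40 ± 0.09 for PBS against sham (edgeR adjusted p = 0.00455 and 0.00159). Slc2a3 (GLUT3; ENSMUSG00000003153, chr6:122727809-122801640, minus strand), a high-affinity transporter best known from neurons and white blood cells, was low, with 3.38, 4.28, 3.54, 3.63 and 3.23 CPM in rHCI hearts and 4.03, 3.61, 3.62, 3.88 and 3.63 CPM in PBS hearts. Sham hearts had 2.58, 2.52, 2.36, 1.99 and 2.49 CPM. Neither infarcted group overlapped sham for Slc2a3, whose log2 fold change was 0.60 ± 0.11 for rHCI against sham and 0.64 ± 0.10 for PBS against sham (edgeR adjusted p = 0.000471 and 4.32e-05). Per kilobase of exon, the scale on which genes can be compared (RPKM), Slc2a4 remained the most abundant of the 3, with 89.9 RPKM in rHCI hearts, 79.8 in PBS hearts and 139.8 in sham hearts, against 7.01 RPKM in rHCI hearts, 6.75 in PBS hearts and 5.14 in sham hearts for Slc2a1.

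The hexokinases moved in different directions. Hk2 (ENSMUSG00000000628, chr6:82725025-82774454, minus strand), the insulin-responsive isozyme of muscle that binds mitochondria, had 300.4, 297, 349, 351 and 405 CPM in rHCI hearts and 269.6, 336, 303, 265 and 342 CPM in PBS hearts. Sham hearts had 606, 465, 518, 468 and 410.2 CPM. Sham 20, the lowest sham heart, lay just above rHCI 13, and no groups overlapped with sham. The log2 fold change of Hk2 was -0.53 ± 0.11 for rHCI against sham and -0.71 ± 0.10 for PBS against sham (edgeR adjusted p = 0.0012 and 3.9e-05).

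Hk1 (ENSMUSG00000037012, chr10:62268855-62379908, minus strand), the isozyme of most tissues, had 251, 234, 245, 225 and 235 CPM in rHCI hearts and 229, 251, 221, 230.4 and 243 CPM in PBS hearts. Sham hearts had 306, 277, 275, 272 and 228 CPM. Its groups overlapped through sham 20, and its log2 fold change was -0.18 ± 0.07 for rHCI against sham and -0.21 ± 0.07 for PBS against sham (edgeR adjusted p = 0.0422 and 0.0156). That small difference is bound to the scaling: under library totals it was 0.04 for rHCI and 0.06 for PBS and did not pass. It also lost its call for rHCI against sham without rHCI 3, 7, 11 or 13 or sham 16, 17, 18 or 19. Hk3 (ENSMUSG00000025877, chr13:55005985-55021385, minus strand), an isozyme known from white blood cells, had 4.24, 3.98, 5.69, 4.26 and 4.62 CPM in rHCI hearts and 4.91, 5.25, 5.70, 5.19 and 3.23 CPM in PBS hearts. Sham hearts had 1.10, 1.29, 0.915, 0.846 and 0.640 CPM. All 10 infarcted hearts exceeded all sham hearts, by 4.82-fold for rHCI and 5.11-fold for PBS, with a log2 fold change of 2.27 ± 0.18 for rHCI against sham and 2.35 ± 0.19 for PBS against sham (edgeR adjusted p = 5.26e-07 and 2.28e-07). Exons of Hk3 share 34 bases with Unc5a on the other strand, which had 2812 counts against 3302 for Hk3, so its level is uncertain. Hk3 nevertheless made up only 1.44% ± 0.176 of hexokinase RNA per exon length in rHCI hearts and 1.68% ± 0.394 in PBS hearts, against 0.227% ± 0.0522 in sham hearts (SD, n = 5 each).

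**Figure D2:**
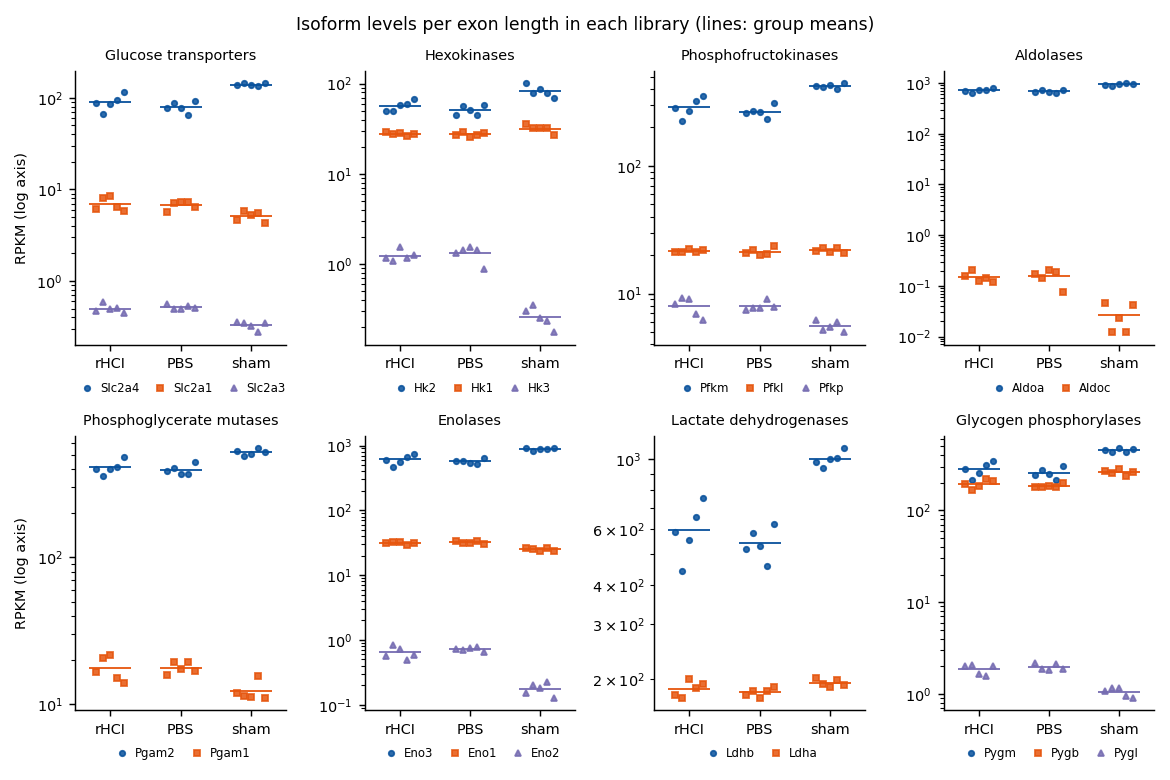
RPKM (CPM per kilobase of exons, log axes) of the isozymes of 8 families in each of the 15 libraries, with a point per library and a line at the mean of each group. Blue circles, the muscle or heart type, are lower in rHCI and PBS than in sham hearts in each panel, and the least abundant isozyme of each family with 3 of them (purple triangles) is higher.

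In upper glycolysis the muscle isozyme of phosphofructokinase fell, the liver isozyme did not pass, and the platelet isozyme rose. Pfkm (ENSMUSG00000033065, chr15:98092589-98132451, plus strand), whose enzyme commits sugar phosphate to glycolysis, had 950.4, 746, 900.0, 1084 and 1175 CPM in rHCI hearts and 860.3, 898, 876, 776 and 1041 CPM in PBS hearts. Sham hearts had 1409, 1376, 1437, 1346 and 1486 CPM. The groups did not overlap with sham, rHCI 3 was the lowest and rHCI 13 the highest of the infarcted hearts, and the log2 fold change was -0.53 ± 0.11 for rHCI against sham and -0.67 ± 0.07 for PBS against sham (edgeR adjusted p = 0.000842 and 2.65e-06).

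Pfkl (ENSMUSG00000020277, chr10:77986947-78010083, minus strand), the liver type, had 140.1, 142, 150.5, 141 and 148 CPM in rHCI hearts and 138, 147, 134, 135 and 156 CPM in PBS hearts. Sham hearts had 145, 152, 142, 151 and 138 CPM. These 3 sets of values overlap, and the 95% confidence interval of the log2 fold change, -0.11 to 0.09 for rHCI against sham and -0.15 to 0.07 for PBS against sham, holds 0 in both comparisons (edgeR adjusted p = 0.895 and 0.49). Pfkp (ENSMUSG00000021196, chr13:6579768-6648777, minus strand), the platelet type, had 112, 125, 122, 92.5 and 83.5 CPM in rHCI hearts and 99.3, 104, 103, 122 and 105 CPM in PBS hearts. Sham hearts had 82.6, 69.8, 73.7, 79.9 and 66.6 CPM. It was higher in every infarcted heart than in every sham heart, with a log2 fold change of 0.53 ± 0.11 for rHCI against sham and 0.51 ± 0.07 for PBS against sham (edgeR adjusted p = 0.00111 and 1.98e-05). Its exons share 748 bases with Pitrm1 on the other strand, a gene with 58435 counts against 91165 for Pfkp over the 15 libraries, and since the strand setting of the counting is not given, its level is uncertain. Pitrm1 itself had a log2 fold change of -0.33 for rHCI and -0.41 for PBS against sham.

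Aldolase splits the sugar bisphosphate into a pair of triose phosphates. Aldoa (ENSMUSG00000030695, chr7:126795234-126800751, minus strand), the muscle type and also the type of most other cells, had 2013, 1847, 2081, 2152 and 2312 CPM in rHCI hearts and 1967, 2120.0, 1900.0, 1846 and 2144 CPM in PBS hearts. Sham hearts had 2711, 2547, 2732, 2899 and 2774 CPM. It lay lower in all infarcted hearts than in all sham hearts, with a log2 fold change of -0.39 ± 0.08 for rHCI against sham and -0.46 ± 0.06 for PBS against sham (edgeR adjusted p = 0.000826 and 2.98e-05). Aldoc (ENSMUSG00000017390, chr11:78322968-78327781, plus strand), the brain type, was barely detected, with 0.510, 0.666, 0.401, 0.470 and 0.388 CPM in rHCI hearts and 0.549, 0.460, 0.671, 0.615 and 0.249 CPM in PBS hearts. Sham hearts had 0.148, 0.0409, 0.0762, 0.0394 and 0.135 CPM. These levels rest on 344 counts in all 15 libraries. All infarcted hearts lay above all sham hearts, but at 2 to 12 counts per sham library the gene passed the low-count filter only through the infarcted hearts. Its calls as higher, counted among the 16 above, are therefore not read as a result. Gpi1, which isomerizes glucose phosphate, averaged 522 ± 15.5 CPM in rHCI hearts, 514 ± 27.3 CPM in PBS hearts and 602 ± 12.1 CPM in sham hearts, and Tpi1, which interconverts the triose phosphates, averaged 584 ± 50.5 CPM in rHCI hearts, 566 ± 38.4 CPM in PBS hearts and 677 ± 28.9 CPM in sham hearts (± SD, n = 5 each). Their log2 fold changes were -0.20 and -0.21 for rHCI against sham and -0.23 and -0.26 for PBS against sham (edgeR adjusted p = 0.00329, 0.0179, 0.000766 and 0.00113), and under library totals they became 0.02 and 0.01 for rHCI and 0.04 and 0.01 for PBS, none of which passed. For Tpi1 the rHCI and sham values overlapped. Its rHCI call was lost in the libraries whose descriptions share a number (edgeR adjusted p = 0.0816).

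The PFKFB enzymes make and break down the fructose bisphosphate that switches on phosphofructokinase, and the 4 genes divided evenly. Pfkfb1 (ENSMUSG00000025271, chrX:150588229-150643878, plus strand), the isozyme of liver and skeletal muscle, had the lowest log2 fold change of the 44 genes, from low levels of 3.91, 2.28, 2.79, 5.36 and 8.42 CPM in rHCI hearts and 4.83, 4.17, 4.01, 1.57 and 5.56 CPM in PBS hearts. Sham hearts had 9.70, 7.78, 6.44, 6.32 and 11.5 CPM. PBS 12 was the lowest library and rHCI 13 lay within the sham range, so that only the PBS group was separate from sham. Its log2 fold change was -0.88 ± 0.31 for rHCI against sham and -1.08 ± 0.27 for PBS against sham (edgeR adjusted p = 0.025 and 0.00283), and the call for rHCI against sham was lost without rHCI 1, rHCI 7, sham 16 or sham 20 and under library totals (-0.68, adjusted p = 0.0623). Its exons share 123 bases with Apex2 on the other strand, which had 5529 counts against 5402 for Pfkfb1, so its level is uncertain. Pfkfb2, the heart isozyme, averaged 45.2 ± 4.49 CPM in rHCI hearts, 41.1 ± 3.18 CPM in PBS hearts and 66.2 ± 15.9 CPM in sham hearts (± SD, n = 5 each), with a log2 fold change of -0.54 ± 0.13 for rHCI against sham and -0.69 ± 0.12 for PBS against sham (edgeR adjusted p = 0.00357 and 0.000251).

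Pfkfb3, the isozyme with the strongest push toward glycolysis, was higher, at 19.9 ± 2.56 CPM in rHCI hearts, 22.1 ± 1.23 CPM in PBS hearts and 9.50 ± 1.01 CPM in sham hearts (± SD, n = 5 each). Its log2 fold change was 1.07 ± 0.10 for rHCI against sham and 1.22 ± 0.07 for PBS against sham (edgeR adjusted p = 1.95e-06 and 1.22e-08). Pfkfb4, known from testis and tumour cells, averaged 6.13 ± 0.581 CPM in rHCI hearts, 6.35 ± 0.761 CPM in PBS hearts and 3.76 ± 0.297 CPM in sham hearts, with a log2 fold change of 0.71 ± 0.09 for rHCI against sham and 0.75 ± 0.10 for PBS against sham (edgeR adjusted p = 3.69e-05 and 1.48e-05). Both rose without overlap between infarcted and sham hearts.

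In lower glycolysis the muscle isozymes of phosphoglycerate mutase and enolase fell, while their general isozymes rose. Pgam2 (ENSMUSG00000020475, chr11:5801640-5803733, minus strand), the muscle type, had 336, 299.7, 333, 347 and 402 CPM in rHCI hearts and 323, 339, 311, 312 and 375 CPM in PBS hearts. Sham hearts had 446, 410.3, 421, 462 and 436 CPM. All infarcted hearts lay below all sham hearts, with a log2 fold change of -0.33 ± 0.07 for rHCI against sham and -0.39 ± 0.06 for PBS against sham (edgeR adjusted p = 0.00175 and 5.67e-05). Under library totals it was -0.12 for both, and the rHCI call was lost (adjusted p = 0.0863). Pgam1 (ENSMUSG00000011752, chr19:41911923-41918660, plus strand), the type of most tissues, had 33.0, 41.0, 43.1, 29.9 and 27.9 CPM in rHCI hearts and 31.4, 38.3, 34.6, 38.5 and 33.5 CPM in PBS hearts. Sham hearts had 23.8, 22.7, 22.4, 30.9 and 22.0 CPM. The log2 fold change of Pgam1 was 0.53 ± 0.13 for rHCI against sham and 0.53 ± 0.09 for PBS against sham (edgeR adjusted p = 0.00369 and 0.000175), and sham 19 lay within the rHCI range and just below the lowest PBS heart.

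The windows before the RefSeq starts of these 2 genes are shown as examples, each with a match to 1 of the 5 motifs searched in the members' promoters. They are 250 bases of GRCm38.p6 each, 5′ to 3′ on the gene's strand and ending at the base before the start, Pgam1 at chr19:41911621-41911870, plus strand and Pgam2 at chr11:5803797-5804046, minus strand. Capitals mark the letters ACGTG, the core that hypoxia-inducible factors (HIF) bind, 114 bases before the start of Pgam1, and a match to the MEF2 consensus, which a family of muscle transcription factors binds, 80 bases before the start of Pgam2. Both windows stop short of the gene coordinates given above, which begin on the gene's strand at 41911923 (Pgam1) and 5803733 (Pgam2). The annotations thus place the starts differently, and distances are from the RefSeq starts. ACGTG stood in 60% of the members' windows among genes higher for PBS against sham and 52.2% among lower ones, as given below.
Pgam1: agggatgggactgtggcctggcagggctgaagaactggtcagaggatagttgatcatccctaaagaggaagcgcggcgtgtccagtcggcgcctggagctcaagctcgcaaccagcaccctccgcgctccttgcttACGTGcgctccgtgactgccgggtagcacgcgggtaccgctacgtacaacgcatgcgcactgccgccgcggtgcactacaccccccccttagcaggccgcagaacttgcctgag
Pgam2: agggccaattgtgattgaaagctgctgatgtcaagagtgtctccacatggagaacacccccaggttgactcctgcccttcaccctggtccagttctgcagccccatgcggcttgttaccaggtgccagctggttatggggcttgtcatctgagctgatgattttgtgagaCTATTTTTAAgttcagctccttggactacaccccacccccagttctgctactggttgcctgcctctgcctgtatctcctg

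Eno3 (ENSMUSG00000060600, chr11:70657202-70662513, plus strand), the muscle enolase, had 1057, 809, 975, 1170.3 and 1299.9 CPM in rHCI hearts and 998, 1016, 932, 912 and 1115 CPM in PBS hearts. Sham hearts had 1564, 1441, 1530.4, 1535 and 1569 CPM. The infarcted hearts were all lower, with a log2 fold change of -0.52 ± 0.11 for rHCI against sham and -0.62 ± 0.06 for PBS against sham (edgeR adjusted p = 0.00119 and 1.46e-06). Eno1 (ENSMUSG00000063524, chr4:150236721-150248879, plus strand), the general enolase, had 166, 178, 177, 159 and 168 CPM in rHCI hearts and 179.9, 171, 171, 182 and 164 CPM in PBS hearts. Sham hearts had 139, 137, 125, 143 and 125 CPM. Here the infarcted hearts were all higher, with a log2 fold change of 0.35 ± 0.06 for rHCI against sham and 0.37 ± 0.05 for PBS against sham (edgeR adjusted p = 0.000175 and 2.81e-05). Eno2 (ENSMUSG00000004267, chr6:124760053-124769673, minus strand), the neuronal enolase, had 2.71, 3.9976, 3.42, 2.32 and 2.71 CPM in rHCI hearts and 3.43, 3.35, 3.49, 3.61 and 3.04 CPM in PBS hearts. Sham hearts had 0.726, 0.942, 0.858, 1.04 and 0.606 CPM. It too was higher in every infarcted heart, by 1.89 ± 0.19 for rHCI against sham and 2.04 ± 0.14 for PBS against sham (edgeR adjusted p = 4.21e-06 and 4.93e-08) on the log2 scale. On the RPKM scale Eno3 still stood far above the others, at 611 RPKM in rHCI hearts, 572 in PBS hearts and 879 in sham hearts, while Eno2 was at 0.644 RPKM in rHCI hearts, 0.719 in PBS hearts and 0.177 in sham hearts.

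The other enzymes of lower glycolysis, Gapdh, Pgk1 and Pkm, were lower against sham, except that Pgk1 did not pass for rHCI. Gapdh, which makes the first NADH of the pathway, averaged 1626 ± 111 CPM in rHCI hearts, 1615 ± 89.2 CPM in PBS hearts and 1939 ± 102 CPM in sham hearts (± SD, n = 5 each), with a log2 fold change of -0.25 ± 0.07 for rHCI against sham and -0.27 ± 0.06 for PBS against sham (edgeR adjusted p = 0.00861 and 0.00155), and under library totals it was -0.03 for rHCI and 0.01 for PBS. Pgk1, which makes the first ATP, averaged 247 ± 3.68 CPM in rHCI hearts, 243 ± 10.3 CPM in PBS hearts and 265 ± 7.93 CPM in sham hearts, with a log2 fold change of -0.10 ± 0.04 for rHCI against sham and -0.13 ± 0.04 for PBS against sham (edgeR adjusted p = 0.0658 and 0.0183), and under library totals it was 0.12 for rHCI and 0.14 for PBS and passed as higher. Without PBS 9 the lower call of Pgk1 for PBS was lost, and for rHCI RLE factors, DESeq2 and limma-voom called it lower (adjusted p = 0.0317, 0.00189 and 0.041). For PBS the call was also lost in edgeR fits without a filter (adjusted p = 0.0502) and with the number in the descriptions as a term (0.0894). In the libraries that share that number it was lost too (0.0878). Pkm, pyruvate kinase of muscle and of most other adult tissues, averaged 1064 ± 86.8 CPM in rHCI hearts, 1022 ± 46.1 CPM in PBS hearts and 1297 ± 34.9 CPM in sham hearts, with a log2 fold change of -0.28 ± 0.07 for rHCI against sham and -0.35 ± 0.05 for PBS against sham (edgeR adjusted p = 0.00318 and 4.9e-05). Under library totals Pkm was at -0.06 for rHCI and -0.07 for PBS, and neither passed (adjusted p = 0.293 and 0.148). Gapdh has 74 near-identical copies in the genome, but their counts came to 1.45% of its own.

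The lactate genes held the largest rise of the 44 genes. Slc16a3 (MCT4; ENSMUSG00000025161, chr11:120948480-120960868, plus strand), the transporter through which glycolytic cells export lactate, had 13.6, 18.2, 16.4, 11.1 and 11.4 CPM in rHCI hearts and 19.1, 16.9, 18.8, 16.7 and 13.5 CPM in PBS hearts. Sham hearts had 2.08, 1.39, 1.47, 1.54 and 1.32 CPM. The lowest infarcted heart, rHCI 11, stood far above the highest sham heart, sham 16. Levels were 9.06-fold and 10.8-fold those of sham in rHCI and PBS hearts, with a log2 fold change of 3.18 ± 0.17 for rHCI against sham and 3.43 ± 0.13 for PBS against sham (edgeR adjusted p = 3.68e-08 and 3.94e-10).

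Slc16a1 (MCT1), the transporter through which heart muscle takes lactate up, averaged 283 ± 22.7 CPM in rHCI hearts, 265 ± 23.1 CPM in PBS hearts and 334 ± 37.5 CPM in sham hearts (± SD, n = 5 each). Its ranges overlapped with sham, and its log2 fold change was -0.23 ± 0.08 for rHCI against sham and -0.33 ± 0.08 for PBS against sham (edgeR adjusted p = 0.0299 and 0.00229). The rHCI call was lost without rHCI 1, 3 or 11 or sham 16 or 19. Under library totals Slc16a1 was at -0.01 for rHCI and -0.06 for PBS, and neither passed (adjusted p = 0.919 and 0.475). On the RPKM scale Slc16a1 remained the more abundant transporter, with 64.0 RPKM in rHCI hearts, 60.0 in PBS hearts and 75.4 in sham hearts, against 2.66 RPKM in rHCI hearts, 3.20 in PBS hearts and 0.293 in sham hearts for Slc16a3.

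The promoter windows of the 2 lactate transporters, of 250 bases before the RefSeq starts as above (Slc16a3 at chr11:120948817-120949066, plus strand, and Slc16a1 at chr3:104638414-104638663, plus strand), are shown as examples. Both carry the HIF core. The window of Slc16a3 lies inside the gene coordinates given above, which begin at 120948480, so the annotations place its start differently. Capitals mark ACGTG, found 27 and 14 bases before the start of Slc16a3, and CACGTG, an E-box that contains ACGTG on either strand, found 200 bases before the start of Slc16a1.
Slc16a3: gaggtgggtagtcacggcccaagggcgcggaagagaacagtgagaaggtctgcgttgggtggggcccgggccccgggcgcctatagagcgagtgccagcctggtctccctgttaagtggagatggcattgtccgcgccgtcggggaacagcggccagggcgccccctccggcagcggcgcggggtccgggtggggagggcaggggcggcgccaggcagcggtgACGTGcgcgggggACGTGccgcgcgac
Slc16a1: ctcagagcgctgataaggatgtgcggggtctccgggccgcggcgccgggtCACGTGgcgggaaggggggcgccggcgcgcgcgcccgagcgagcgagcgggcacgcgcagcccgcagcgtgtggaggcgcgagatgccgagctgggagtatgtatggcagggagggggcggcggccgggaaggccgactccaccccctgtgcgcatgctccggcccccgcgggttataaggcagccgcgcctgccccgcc

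Lactate dehydrogenase is built from a heart subunit, which favours the use of lactate, and a muscle subunit, which favours its formation. Ldhb (ENSMUSG00000030246, chr6:142490249-142507957, minus strand), the heart subunit, had 925, 693, 869, 1029 and 1181 CPM in rHCI hearts and 816, 914, 836, 719 and 979 CPM in PBS hearts. Sham hearts had 1545, 1477, 1572, 1591 and 1702 CPM. All infarcted hearts lay well below sham, with a log2 fold change of -0.74 ± 0.12 for rHCI against sham and -0.89 ± 0.08 for PBS against sham (edgeR adjusted p = 0.000172 and 4.46e-07). Ldha (ENSMUSG00000063229, chr7:46841475-46855627, plus strand), the muscle subunit, had 590.1, 580.2, 663, 619.8 and 642 CPM in rHCI hearts and 592, 607, 579.5, 610.0 and 627 CPM in PBS hearts. Sham hearts had 669, 642, 625, 659.9 and 634 CPM. These values of Ldha overlapped with sham. Its log2 fold change was -0.05 ± 0.06 for rHCI against sham and -0.10 ± 0.05 for PBS against sham (edgeR adjusted p = 0.416 and 0.0571), with 95% confidence intervals of -0.18 to 0.07 for rHCI and -0.20 to -0.00 for PBS. Ldha passed as lower for PBS against sham without PBS 14 (adjusted p = 0.0473) or without sham 18 (0.0442), and also with RLE factors (0.0435), by DESeq2 (0.0046) and by limma-voom (0.00852). Under library totals it passed as higher in both comparisons, at 0.17.

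Of the genes that control pyruvate dehydrogenase, 1 kinase rose and the others were lower or did not pass. The 4 PDK kinases switch the complex off and the phosphatase Pdp1 switches it on. Pdk2 (ENSMUSG00000038967, chr11:95026258-95041354, minus strand), a kinase of most tissues, had 342, 268, 334, 409.5 and 448 CPM in rHCI hearts and 289.9, 339, 321, 268 and 369 CPM in PBS hearts. Sham hearts had 584, 572, 617, 557 and 665 CPM. It was lower in all infarcted hearts, with a log2 fold change of -0.73 ± 0.12 for rHCI against sham and -0.92 ± 0.08 for PBS against sham (edgeR adjusted p = 0.000193 and 5.08e-07). Pdk1, a kinase known as a HIF target, averaged 194 ± 23.4 CPM in rHCI hearts, 182 ± 13.5 CPM in PBS hearts and 274 ± 11.4 CPM in sham hearts (± SD, n = 5 each), with a log2 fold change of -0.49 ± 0.08 for rHCI against sham and -0.59 ± 0.06 for PBS against sham (edgeR adjusted p = 0.000163 and 6.64e-07). Pdk3 was the gene that rose, at 6.43 ± 0.798 CPM in rHCI hearts, 7.11 ± 1.06 CPM in PBS hearts and 2.58 ± 0.253 CPM in sham hearts, with a log2 fold change of 1.32 ± 0.11 for rHCI against sham and 1.46 ± 0.12 for PBS against sham (edgeR adjusted p = 7.86e-07 and 1.54e-07) and no overlap.

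Pdk4 (ENSMUSG00000019577, chr6:5483351-5496309, minus strand), the kinase that fasting and fatty acids induce, had 1295, 1314, 844, 1305 and 683 CPM in rHCI hearts and 993, 652, 1269, 965 and 919 CPM in PBS hearts. Sham hearts had 2320.3, 1022, 1136, 951 and 3526 CPM. Sham 16 and sham 20 stood far above the other sham hearts, which lay among the infarcted hearts. The log2 fold change was -0.71 ± 0.35 for rHCI against sham and -0.90 ± 0.33 for PBS against sham (edgeR adjusted p = 0.0963 and 0.0265), but for PBS it did not pass without sham 16 (-0.80, adjusted p = 0.063), without sham 20 (-0.51, adjusted p = 0.0915) or without PBS 6 (-0.79, adjusted p = 0.0625), nor by DESeq2 or limma-voom. For rHCI it became -0.31 without sham 20 and passed without sham 19 (-0.87, adjusted p = 0.0474). Pdp1 averaged 40.4 ± 9.40 CPM in rHCI hearts, 37.5 ± 3.32 CPM in PBS hearts and 49.5 ± 3.06 CPM in sham hearts (± SD, n = 5 each), with a log2 fold change of -0.29 ± 0.13 for rHCI against sham and -0.41 ± 0.07 for PBS against sham (edgeR adjusted p = 0.0712 and 9.47e-05), and it passed for rHCI without rHCI 13, by DESeq2 and by limma-voom. Under library totals Pdp1 was at -0.13 for PBS and did not pass (adjusted p = 0.0875).

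Of the 5 pentose phosphate genes, 3 rose without overlap in both comparisons. Over all genes tested, 27.2% lay above sham without overlap for rHCI and 31.6% for PBS. G6pdx and Pgd catalyse the oxidative steps that make NADPH, and G6pdx averaged 13.1 ± 1.49 CPM in rHCI hearts, 13.996 ± 0.980 CPM in PBS hearts and 6.68 ± 0.409 CPM in sham hearts (± SD, n = 5 each). Its log2 fold change was 0.98 ± 0.09 for rHCI against sham and 1.06 ± 0.07 for PBS against sham (edgeR adjusted p = 1.24e-06 and 2.19e-08). Pgd averaged 46.4 ± 3.53 CPM in rHCI hearts, 47.8 ± 3.48 CPM in PBS hearts and 30.2 ± 1.30 CPM in sham hearts, with a log2 fold change of 0.63 ± 0.06 for rHCI against sham and 0.66 ± 0.06 for PBS against sham (edgeR adjusted p = 2.34e-06 and 2.63e-07). Tkt, the transketolase that links the pathway back to glycolysis, averaged 36.4 ± 3.10 CPM in rHCI hearts, 40.1 ± 4.29 CPM in PBS hearts and 19.9 ± 1.84 CPM in sham hearts, with a log2 fold change of 0.88 ± 0.08 for rHCI against sham and 1.01 ± 0.08 for PBS against sham (edgeR adjusted p = 1.09e-06 and 1.96e-07). Exons of G6pdx share 418 bases with Ikbkg on the other strand, which had 46503 counts against 10654 for G6pdx and a log2 fold change of -0.30 for rHCI and -0.34 for PBS against sham, so the level of G6pdx is uncertain.

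The other two pentose phosphate genes did not rise. Taldo1, the transaldolase, averaged 73.8 ± 3.92 CPM in rHCI hearts, 73.5 ± 2.23 CPM in PBS hearts and 78.4 ± 3.66 CPM in sham hearts and did not pass, with a log2 fold change of -0.08 ± 0.05 for rHCI against sham and -0.10 ± 0.04 for PBS against sham (edgeR adjusted p = 0.191 and 0.0635). For PBS it passed as lower with RLE factors (adjusted p = 0.0498), by DESeq2 (0.0453), by limma-voom (0.0303) and without sham 18 (0.0201), and under library totals it passed as higher in both comparisons. Rpia, which makes ribose phosphate, averaged 12.8 ± 0.752 CPM in rHCI hearts, 12.5 ± 0.877 CPM in PBS hearts and 14.6 ± 1.41 CPM in sham hearts, with a log2 fold change of -0.18 ± 0.07 for rHCI against sham and -0.23 ± 0.07 for PBS against sham (edgeR adjusted p = 0.0479 and 0.0132). The small difference of Rpia was 0.04 for rHCI and 0.05 for PBS under library totals, and it lost its call in several fits, among them those without rHCI 1, 3 or 11 or sham 17, 19 or 20 for rHCI.

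Among the glycogen genes, those of muscle fell and the liver phosphorylase rose. Pygm (ENSMUSG00000032648, chr19:6384399-6398459, plus strand), the muscle phosphorylase that releases glucose phosphate from glycogen, had 916, 687, 821, 1002 and 1101 CPM in rHCI hearts and 786, 893, 809, 692 and 973 CPM in PBS hearts. Sham hearts had 1482, 1392, 1526, 1401 and 1498 CPM. Every infarcted heart was below every sham heart, and the log2 fold change was -0.68 ± 0.11 for rHCI against sham and -0.82 ± 0.08 for PBS against sham (edgeR adjusted p = 0.00018 and 1.28e-06). Pygb (ENSMUSG00000033059, chr2:150786735-150831758, plus strand), the brain type that heart also expresses, had 933, 796, 885, 1051 and 1013 CPM in rHCI hearts and 869.8, 873, 891, 859.6 and 961 CPM in PBS hearts. Sham hearts had 1288, 1232, 1355, 1133 and 1277 CPM. The same separation was seen, with a log2 fold change of -0.42 ± 0.08 for rHCI against sham and -0.50 ± 0.06 for PBS against sham (edgeR adjusted p = 0.000843 and 5.82e-06). Pygl (ENSMUSG00000021069, chr12:70190811-70231488, minus strand), the liver type, had 13.8, 14.3, 11.5, 10.8 and 13.9 CPM in rHCI hearts and 15.1, 12.9, 12.7, 14.8 and 13.023 CPM in PBS hearts. Sham hearts had 7.40, 7.92, 8.10, 6.55 and 6.28 CPM. Infarcted hearts were all higher, with a log2 fold change of 0.83 ± 0.10 for rHCI against sham and 0.91 ± 0.09 for PBS against sham (edgeR adjusted p = 2.24e-05 and 6.96e-07). Gys1, the muscle glycogen synthase, averaged 125 ± 12.4 CPM in rHCI hearts, 117 ± 10.6 CPM in PBS hearts and 178 ± 10.1 CPM in sham hearts (± SD, n = 5 each), with a log2 fold change of -0.50 ± 0.07 for rHCI against sham and -0.62 ± 0.06 for PBS against sham (edgeR adjusted p = 6.3e-05 and 1.81e-06). Exons of Gys1 share 310 bases with Ruvbl2 on the other strand, which had 22281 counts against 132122 for Gys1, so its level is uncertain. Gbe1, the branching enzyme, averaged 58.2 ± 4.44 CPM in rHCI hearts, 54.8 ± 4.07 CPM in PBS hearts and 66.1 ± 1.91 CPM in sham hearts, with a log2 fold change of -0.18 ± 0.06 for rHCI against sham and -0.27 ± 0.05 for PBS against sham (edgeR adjusted p = 0.0134 and 0.000302), and under library totals it was 0.04 for rHCI and -0.00 for PBS.

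The ratio of the muscle or heart isozyme to the sum of the other isozymes of its family asks about the balance within each library and needs no scaling between libraries. For lactate dehydrogenase the heart subunit Ldhb was set over the muscle subunit Ldha, and the opposite choice would turn the sign. The sums include Hk3 and Pfkp, whose levels are uncertain because of genes on the other strand. All 8 ratios, from counts per exon length, were lower in rHCI and in PBS hearts than in sham hearts, without overlap. Aldoa over Aldoc is counted among them but is not read as a result, because Aldoc passed the low-count filter only through the infarcted hearts. Each of these 16 tests gave p = 0.00794, the smallest that an exact two-sided permutation test of 5 against 5 libraries can give, or 0.0119 after Benjamini-Hochberg adjustment over 24 tests. The log2 ratio of Slc2a4 to Slc2a1 and Slc2a3 was 3.72, 2.95, 3.23, 3.77 and 4.20 in rHCI hearts and 3.64, 3.54, 3.29, 3.06 and 3.74 in PBS hearts. In sham hearts it was 4.76, 4.54, 4.62, 4.53 and 4.95. The lowest sham heart thus stood above rHCI 13, the highest infarcted heart. The mean difference (± standard error) was -1.11 ± 0.23 for rHCI and -1.23 ± 0.15 for PBS against sham.

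The differences in the other ratios varied widely in size. For Eno3 over Eno1 and Eno2 the difference was -0.90 ± 0.15 for rHCI and -1.02 ± 0.09 for PBS against sham, from log2 ratios of 3.78 to 4.55 in rHCI, 3.92 to 4.37 in PBS and 5.01 to 5.27 in sham hearts. Pgam2 over Pgam1 differed by -0.86 ± 0.20 for rHCI and -0.93 ± 0.11 for PBS. Ldhb over Ldha differed by -0.71 ± 0.12 for rHCI and -0.79 ± 0.08 for PBS, and Pfkm over Pfkl and Pfkp by -0.67 ± 0.15 for rHCI and -0.76 ± 0.08 for PBS. Each of these 6 differences lay between -0.67 and -0.93. Hk2 over Hk1 and Hk3 differed by -0.40 ± 0.10 for rHCI and -0.55 ± 0.07 for PBS, and Pygm over Pygb and Pygl, the smallest shift, by -0.28 ± 0.06 for rHCI and -0.34 ± 0.07 for PBS. Aldoa over Aldoc gave -3.06 ± 0.45 for rHCI and -3.13 ± 0.50 for PBS, a value that rests on the few counts of Aldoc and, as above, is not read as a result.

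**Figure D3:**
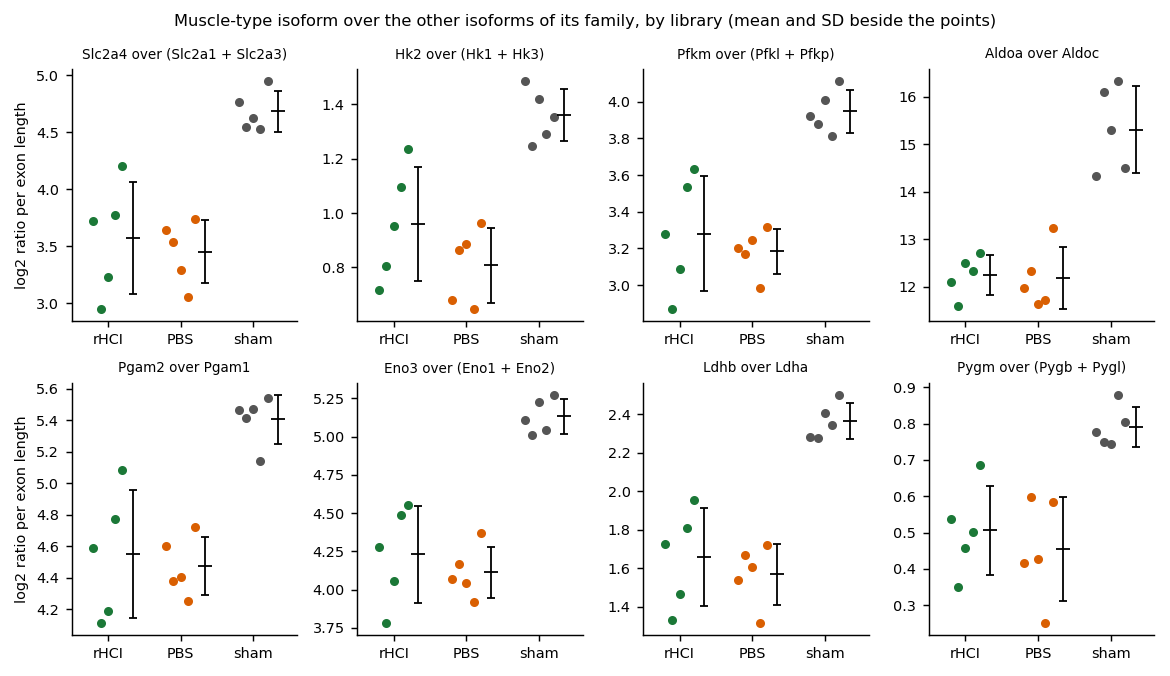
Log2 ratio of the muscle or heart isozyme to the other isozymes of its family, per exon length, with a point per library and the mean ± SD of each group of 5 beside the points. In each of the 8 panels every rHCI and PBS library lies below every sham library, while rHCI and PBS overlap. The panel of Aldoa over Aldoc rests on few counts of Aldoc and is not read as a result.

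In spite of these differences, the muscle or heart isozyme remained the larger part of each family's RNA per merged exon length, with an exception for Hk2 under another length given below. Ldhb made up 75.8% ± 3.24 of lactate dehydrogenase RNA in rHCI hearts, 74.7% ± 2.11 in PBS hearts and 83.7% ± 0.873 in sham hearts (SD, n = 5 each). Pfkm made up 90.5% ± 1.88 of phosphofructokinase RNA in rHCI, 90.1% ± 0.787 in PBS and 93.9% ± 0.458 in sham hearts. Hk2 made up 66.0% ± 3.25, 63.6% ± 2.20 and 72.0% ± 1.34 of hexokinase RNA in rHCI, PBS and sham hearts, and Pygm made up 58.7% ± 2.06, 57.8% ± 2.41 and 63.4% ± 0.882 of phosphorylase RNA. The shares depend on the length used. Over the length of the longest coding transcript instead, Hk2 made up 51.8% ± 3.65 in rHCI, 49.2% ± 2.33 in PBS and 58.3% ± 1.61 in sham hearts, level with Hk1 in PBS hearts (49.4% ± 2.16). By that length Ldhb made up 67.5%, 66.2% and 77.2% in rHCI, PBS and sham hearts. Pfkm made up 83.6%, 82.8% and 89.55%, and Pygm 56.2%, 55.3% and 61.1%. The families' summed levels were lower too. Lactate dehydrogenase summed to 617 to 946 RPKM in rHCI hearts, 642 to 813 in PBS hearts and 1135 to 1275 in sham hearts, and the enolases to 499 to 779, 559 to 672 and 854 to 926 RPKM. Of the 8 sums, the hexokinases alone overlapped with sham, in the rHCI group, at 78.2 to 96.7 RPKM against 95.6 to 138 RPKM.

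For rHCI against PBS, the comparison that bears on the hydrogel, none of the 44 genes passed, against a background of 0% of 16383 genes tested by edgeR. None had an unadjusted p under 0.05, which 3.53% of all genes had, and none had groups without overlap, which 0.501% had. DESeq2 and limma-voom called 6 and 3 genes in all, and none of the 44. Adjusted p-values of the members were 0.871 to 0.989, and 30 of the 44 log2 fold changes were above 0. The genes with the smallest unadjusted p were, on the higher side, Pfkfb2 at 0.14 (95% confidence interval -0.02 to 0.30), Hk2 at 0.17 (-0.05 to 0.39) and Pdk2 at 0.18 (-0.10 to 0.47). On the lower side they were Pfkfb3 at -0.16 (-0.34 to 0.03), Slc16a3 at -0.26 (-0.58 to 0.06) and Tkt at -0.14 (-0.32 to 0.04). The intervals of all 44 genes reached from -0.64 to 1.02, both bounds being those of the scarce Pfkfb1, and differences inside an interval are not excluded by these libraries. None of the 8 isozyme ratios passed either, with differences of 0.05 to 0.15 on the log2 scale and exact permutation p-values that adjusted to 0.314 to 0.857.

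Infarcted hearts of the same group differed among themselves. Of the 25 genes that were lower for PBS against sham, rHCI 13 had the highest value of all 10 infarcted hearts for 18. The lowest value belonged to rHCI 3 for 11 of them and to PBS 12 for 6. These genes were chosen by their PBS values, which favours an rHCI heart as the highest. Nor are the genes independent of each other, and no share over all genes is given. The counts therefore only describe these libraries. Cardiomyocyte markers were also highest in rHCI 13, at 65316 CPM in sum, and lowest in PBS 12, at 42301 CPM, and rHCI 3, at 44617 CPM. Their part in this order was not tested. Of the 16 higher genes, rHCI 11 had the lowest value for 9 and PBS 2 the highest for 6. These 16, Aldoc among them, were likewise chosen by PBS values, which favours an rHCI heart as the lowest and a PBS heart as the highest. Without rHCI 13 the log2 fold change of Pdk2 for rHCI against PBS was 0.09 and that of Hk2 0.10, and without rHCI 11 that of Pfkfb2 was 0.09.

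**Figure D4:**
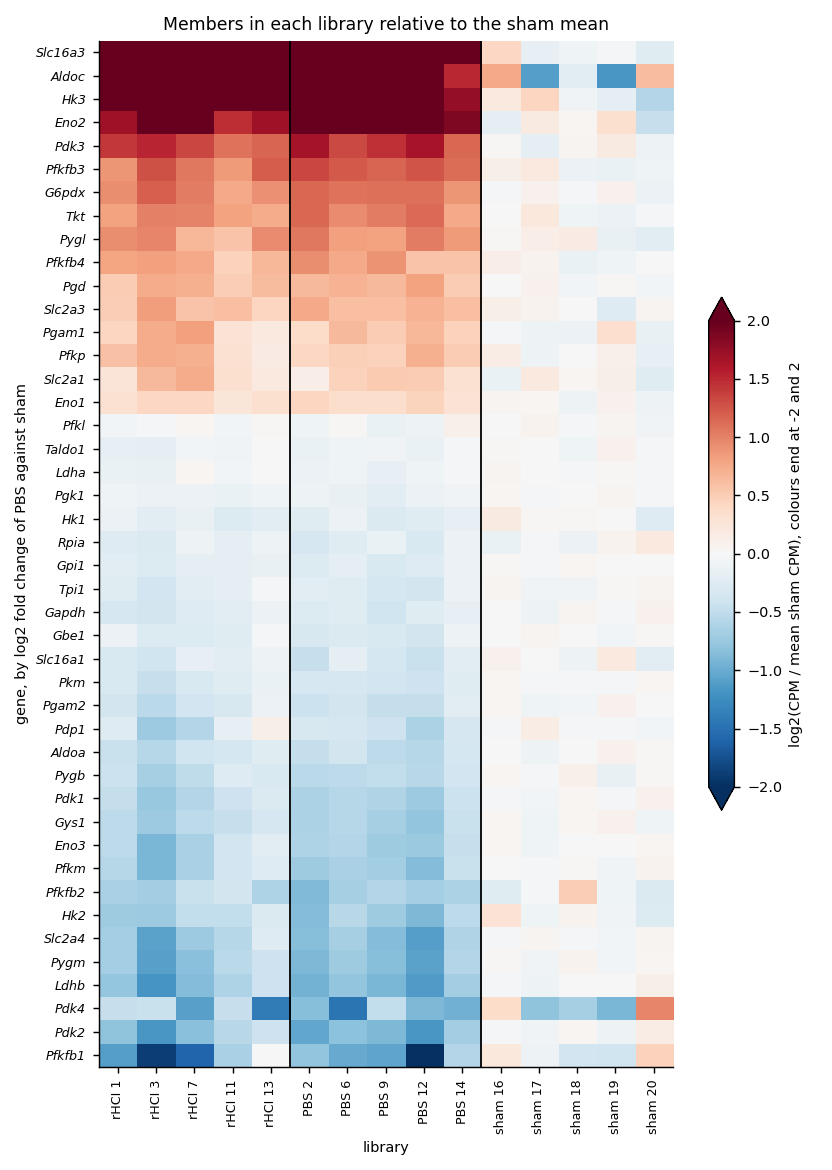
Log2 of each library's CPM over the mean of the sham hearts for the 44 genes (rows, in order of the log2 fold change of PBS against sham) in the 15 libraries (columns, rHCI, PBS and sham). Red is higher and blue lower than the sham mean, colours end at -2 and 2, and the palest of the rHCI columns among the blue genes is rHCI 13.

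Other genes around the pathway, in lists drawn up by role, moved as follows against sham. Their counts are read against the background of all genes tested, and no list was tested as a whole. That background was 34.1% higher and 29.7% lower for rHCI, and 36.5% higher and 34.9% lower for PBS. All 10 tested genes of pyruvate entry and of the pyruvate dehydrogenase complex were lower in both comparisons, with medians of -0.47 for rHCI and -0.61 for PBS. Pdha1, the catalytic subunit, had a log2 fold change of -0.55 ± 0.09 for rHCI against sham and -0.67 ± 0.06 for PBS against sham (edgeR adjusted p = 0.000255 and 6.23e-07), and Mpc2, a subunit of the mitochondrial pyruvate carrier, of -0.50 ± 0.09 for rHCI against sham and -0.64 ± 0.07 for PBS against sham (edgeR adjusted p = 0.000343 and 1.84e-06). Of 9 genes of transporter trafficking and insulin signalling, 2 were higher and 6 lower in both comparisons. Tbc1d4, which holds GLUT4 vesicles back until insulin acts, had a log2 fold change of -1.04 ± 0.14 for rHCI against sham and -1.26 ± 0.12 for PBS against sham (edgeR adjusted p = 4.13e-05 and 9.51e-07), whereas its relative Tbc1d1 had 0.80 for rHCI and 0.80 for PBS.

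Of the other glucose transporters tested, 4 of 8 were higher and 2 lower for rHCI, and 4 of 9 higher and 3 lower for PBS. Slc2a6 (GLUT6), a transporter of lysosomes in macrophages, averaged 1.38 CPM in rHCI hearts, 1.43 CPM in PBS hearts and 0.0591 CPM in sham hearts. At that sham level it passed the low-count filter only through the infarcted hearts, so its call is not read as a result. Of 6 other genes of monocarboxylate transport, 1 was higher and 3 lower for rHCI, and 1 higher and 4 lower for PBS. Both partner proteins of the lactate transporters are among them: Emb had a log2 fold change of 2.73 ± 0.13 for rHCI against sham and 2.81 ± 0.18 for PBS against sham (edgeR adjusted p = 1.82e-08 and 2.05e-08) and Bsg of -0.53 ± 0.07 for rHCI against sham and -0.61 ± 0.07 for PBS against sham (edgeR adjusted p = 6.26e-05 and 3.78e-06). Of 7 other pentose phosphate genes, 4 were higher and 1 lower in both comparisons, among them Rpe, at 0.43 for rHCI and 0.50 for PBS. Of 8 other glycolysis genes, 1 was higher and 5 were lower in both, with Ldhd, which uses D-lactate, at -0.90 for rHCI and -1.14 for PBS.

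Of 24 other glycogen genes, 5 were higher and 14 lower for rHCI, and 5 higher and 16 lower for PBS. Ppp1r3a, which brings a phosphatase to glycogen in muscle, had a log2 fold change of -0.63 ± 0.12 for rHCI against sham and -0.84 ± 0.09 for PBS against sham (edgeR adjusted p = 0.000528 and 3.45e-06). Of 12 genes of the hexosamine and polyol branches, 5 were higher and 4 lower for rHCI, and 6 higher and 4 lower for PBS. Gfpt2, an entry enzyme of hexosamine synthesis, had 1.22 ± 0.13 for rHCI against sham and 1.12 ± 0.11 for PBS against sham (edgeR adjusted p = 8.02e-06 and 8.96e-07). Of 13 transcriptional regulators, 2 were higher and 8 lower in both. Klf15, which induces Slc2a4 in muscle, had -1.61 ± 0.22 for rHCI against sham and -1.76 ± 0.14 for PBS against sham (edgeR adjusted p = 4.4e-05 and 2.21e-07), Ppara, a regulator of fatty acid use, -1.12 for rHCI and -1.33 for PBS, and Myc 1.31 for rHCI and 1.54 for PBS. For rHCI against PBS, 0 genes of these 9 lists passed.

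Promoter windows from RefSeq (GRCm38.p6, 250 bases before to 50 after the start) were matched by symbol for 41 of the 44 genes, and 28 of the 41 have 1 start in that table. The letters ACGTG, on either strand, stood in 22 of the 41 windows (53.7%), against 28.1% of 11348 tested genes with a window and 21.8% of 27025 genes of the whole table. They stood in 9 of the 15 windows (60%) of genes higher in PBS hearts than in sham hearts, Slc16a3, Pgam1 and Pfkfb3 among them. Aldoc, whose call is not read as a result, is among the 15 and among the 9. The letters ACGTG also stood in 12 of the 23 windows (52.2%) of genes lower in PBS hearts, Slc16a1, Hk2, Pfkm and Pygm among them. Where a gene has 1 start, the shares were 13 of 28 windows (46.4%) against 25.1% of 9081 tested genes. The E-box CACGTG, which contains ACGTG, stood in 6 of 41 windows (14.6%) against 11.3% of tested genes. The half-site AAGGTCA of estrogen-related receptors stood in 3 (7.32%) against 4.02%, and the muscle element CATTCCT in 1 (2.44%) against 5.22%. The MEF2 consensus stood in 2, those of Pfkfb1 and Pgam2 (4.88%), against 2.48%. A match describes letters in a window and says nothing of binding.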

How the data were processed

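The authors deposited raw read counts per gene for 15 libraries, with Ensembl identifiers and symbols, and 0 columns lack a sample. Trimmomatic, STAR, Cufflinks, edgeR, GRCm38 and mm10 are named in the submitters' processing notes, without roles. Not given in the sources used here were the counting program, its strand setting and the annotation, so genes that overlap on the other strand are uncertain. Groups come from the sample titles, whose replicate numbers were read as animals. Were they not separate animals, the p-values would describe no more than the spread of these libraries, which may be technical. Between replicates the lowest chi-square per gene was 10.7 over 30 pairs, so none was treated as a repeat.

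Each pair of groups was fitted on its 10 libraries with edgeR 4.0.16 (R 4.3.3). Low genes were removed by filterByExpr, and the two-sided quasi-likelihood test (glmQLFit, glmQLFTest) ran with TMM factors, with Benjamini-Hochberg adjustment over all genes tested and a threshold of 0.05. It was tested on simulated data with few changed genes, as many up as down. That setting does not check the scaling between infarcted and sham hearts, where most genes passed. CPM uses TMM factors of all 15 libraries, and RPKM divides CPM by the kilobases of merged exons in GENCODE M21 (GRCm38). Isozyme ratios were compared by exact permutation tests over 252 arrangements. Alternatives were RLE factors, library totals, DESeq2 1.42.0, limma-voom (limma 3.58.1), other filters, all 15 libraries in 1 fit, the number in the descriptions (as a term, and the 12 libraries that share it) and a minimum fold of 1.5. Others were no mitochondrial genes, other lengths or denominators of the ratios, and each replicate left out. The length of the longest coding transcript was added after the data were seen.

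The members and lists were chosen with earlier results of these data known. By rule, single libraries are shown for the 8 isozyme families and for the 3 members highest and the 3 lowest in log2 fold change among those called in PBS hearts. For rHCI against PBS it takes, by lowest unadjusted p, 3 higher and 3 lower members. Of each other list it gives the 3 largest changes at 1 CPM or more, and which of them are named was chosen after their values were seen.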

Additional observations from a re-analysis of the deposited data

Results flagged for a closer look

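Of 156 sets of 5 libraries examined (members' CPM and isozyme ratios in each group), 7 held a library far from the other 4, with a gap to its nearest neighbour above 0.71 of the whole range, and chance gives about 1 in 20. Pfkp was at 122 CPM in PBS 12, against 99.3 to 105 CPM in the other PBS hearts. Pfkfb2 was at 93.4 CPM in sham 18, against 54.4 to 65.2 CPM in the other sham hearts. Pgam1 was at 30.9 CPM in sham 19 (22.0 to 23.8 CPM in the others), Slc16a3 at 2.08 CPM in sham 16 (1.32 to 1.54 CPM) and Pdp1 at 55.0 CPM in sham 17 (47.8 to 48.6 CPM). In PBS 14, G6pdx was at 12.3 CPM (14.2 to 14.8 CPM in the other PBS hearts) and Gbe1 at 61.9 CPM (51.5 to 54.0 CPM).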

How the results depend on the processing

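All 16 isozyme ratios called against sham passed under every alternative run, those of Aldoa over Aldoc, not read as a result, among them. Members called higher against sham numbered 16 with each replicate left out, and members called lower 19 to 22 for rHCI and 24 to 27 for PBS. Aldoc, not read as a result, is among the 16. In the main fits 63.9% of all genes passed for rHCI and 71.4% for PBS. The shares of all genes with a replicate left out are not given here, so these counts say little about the members in particular. Under library totals 12 members were lower for rHCI and 14 for PBS, and the median of the members became 0.0401 for rHCI and 0.0449 for PBS against sham and -0.0061 for rHCI against PBS. Signs turned for rHCI in Gbe1 (0.0412), Gpi1 (0.0226), Hk1 (0.0392), Ldha (0.166), Pfkl (0.213), Pgk1 (0.124), Rpia (0.0411), Taldo1 (0.139) and Tpi1 (0.0125). They turned for PBS in Gapdh (0.0079), Gpi1 (0.0425), Hk1 (0.0627), Ldha (0.172), Pfkl (0.231), Pgk1 (0.144), Rpia (0.0473), Taldo1 (0.179) and Tpi1 (0.0116). With a minimum fold of 1.5, by construction a stricter test, 9 members were higher and 0 lower of 2860 genes called for rHCI, and 9 higher and 4 lower of 3982 for PBS. Pfkl, near 0 for rHCI against sham, turned to 0.0070 with the filter at 1 CPM and 0.0171 in the libraries whose descriptions share a number, and lay between -0.0291 and 0.0060 with each replicate left out. In the libraries that share a number, Tpi1, Hk1, Pfkfb1, Slc16a1 and Rpia lost their lower calls for rHCI against sham (edgeR adjusted p = 0.0816, 0.0744, 0.0548, 0.158 and 0.183). For PBS, Pgk1 and Rpia lost theirs there (edgeR adjusted p = 0.0878 and 0.0603). For rHCI against PBS, DESeq2 called 6 genes, limma-voom 3, and edgeR without rHCI 13 called 3, and none of these was a member. Leaving out each replicate there gave differences of -0.0651 to 0.336 for Aldoa over Aldoc, -0.0587 to 0.186 for Pgam2 over Pgam1 and -0.0365 to 0.277 for Slc2a4 over the others. The cause was not tested. No paired analysis was possible because the groups share no replicate numbers. Depth limits Aldoc most, with 344 counts in 15 libraries.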
